A study of Homo sapiens with 6 samples.

Results

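The 10 genes described here encode regulators of the ATF4 and CHOP stress response: ATF4, DDIT3 (the gene of CHOP), TRIB3, CHAC1, SESN2, DDIT4, PPP1R15A, ATF3, CEBPB and XBP1. They were selected by symbol from the deposited gene table, where all 10 were found among 16362 genes. They were selected on earlier results of this same comparison as well as on their known roles, so their differences between the groups are given as a description, with standard errors (SE). Whether a gene met the threshold of the fit over all genes is stated as its place in that fit, not as a test of these 10 genes. The cells are labelled MDA-MB-231, a human breast cancer line. The comparison has 3 control libraries, whose cells had no agent, and 3 libraries of cells treated for 24 h with CTI-2, a compound known here by its code name only. The sources used here give neither its dose nor a vehicle for the controls. RNA was read as whole cDNA molecules on the Oxford Nanopore platform. Totals ran from 2208261 to 3929532 reads per library, so that 3 reads correspond to 0.763 to 1.36 reads per 1000000 counted reads (CPM). No source says that the libraries of a group came from separate cultures, so the spread between them may be technical.

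The labelled line was checked against its usual markers. Of 10 markers of MDA-MB-231, 9 had a mean of at least 10 CPM, and the summed level was 2163 to 2307 CPM in the control libraries and 2427 to 2492 CPM in those with CTI-2. The largest part of that sum was LGALS1, at 1055 to 1249 CPM. VIM, an intermediate filament gene commonly abundant in this line, was at only 14.5 to 18.9 CPM, which goes against the label. CDKN2A, a cell cycle inhibitor gene that is known to be deleted in MDA-MB-231, had 254 to 612 CPM over the 6 libraries. That goes against the label as well. CDH1 and ESR1, genes usually silent in the line, had at most 2 reads in any library. Of the 7 genes listed with them as low or absent, 4 were absent or under 2 CPM throughout. The summed level of that list, most of it CDKN2A, was 351 to 626 CPM in controls and 264 to 329 CPM after CTI-2. CDKN2A was not called, and the cause of the difference was not tested. EPCAM of that list had 6.98 to 10.6 CPM and KRT19 0.906 to 4.07 CPM. Of 9 luminal breast markers 4 were absent or under 2 CPM, while KRT8 had 79.3 to 88.6 CPM and KRT18 211 to 253 CPM. Of 5 fibroblast markers 3 were under 2 CPM, and COL1A1 had 52.2 to 87.4 CPM. None of 5 blood cell markers reached 2 CPM.

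ATF4 is a basic leucine zipper transcription factor whose protein is made more efficiently when the initiation factor eIF2 is phosphorylated by one of several stress-sensing kinases. It switches on genes of amino acid supply and redox balance together with further regulators, among them DDIT3, whose product CHOP promotes cell death in prolonged stress, and TRIB3, whose product binds and restrains ATF4. Because ATF4 is controlled mainly in translation, and XBP1 by splicing of its RNA, gene-level reads do not measure the activity of either factor.

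For each of 4 response elements of this pathway that a script found before the start sites of these genes, the stretch of 1 member is shown as an example. Starts and sequences are those of RefSeq on GRCh38.p14, where all 10 genes matched with 17 start windows of 300 bases each (250 before and 50 after the start). The 4 stretches run 5′ to 3′ on the gene's own strand, and capitals mark the element. CHAC1 (chr15:40953251-40953280, plus strand, 220 to 191 bases before the start) holds the C/EBP-ATF response element TGATGNAA as its reverse complement. DDIT3 (chr12:57520737-57520764, minus strand, 250 to 223 bases before the start) holds an AP-1 element, TGANTCA. PPP1R15A (chr19:48872221-48872391, plus strand, 200 to 30 bases before the start) holds a cAMP response element, TGACGTCA. XBP1 (chr22:28800599-28800769, minus strand, 200 to 30 bases before the start) holds the endoplasmic reticulum stress element.
CHAC1: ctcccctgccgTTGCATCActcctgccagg
DDIT3: gcgcgcgcaTGACTCAcccacctcctcc
PPP1R15A: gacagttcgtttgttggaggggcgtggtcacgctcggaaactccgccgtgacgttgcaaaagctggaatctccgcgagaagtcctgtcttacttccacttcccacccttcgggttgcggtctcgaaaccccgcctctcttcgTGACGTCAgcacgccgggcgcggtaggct
XBP1: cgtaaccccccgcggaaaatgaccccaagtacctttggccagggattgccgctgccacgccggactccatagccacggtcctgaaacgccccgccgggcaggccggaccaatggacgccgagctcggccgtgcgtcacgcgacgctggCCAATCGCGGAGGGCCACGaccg

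On both strands, TGATGNAA was found in windows of CHAC1 and also of ATF3, which is not shown, and in 3.62% of all 35116 RefSeq start windows. TGACGTCA was in the window of PPP1R15A alone among the 10 genes (1.85% of all windows), TGANTCA in DDIT3 alone (7.71%), and the endoplasmic reticulum stress element in XBP1 alone (0.0769%, 27 windows). The plain CCAAT box, which is part of that last element, was found in 7 of the 10 genes (34.6% of all windows), and TGACGTG, the unfolded protein response element, in none (1.97%). The percentages count windows, while a gene was counted if any of its windows held the element. Since the 10 genes have 17 windows, the counts of genes and the percentages are not like measures. DDIT3, which was higher after CTI-2, and CHAC1, whose mean was lower, both hold CCAAT boxes. A match is a description of the letters and not evidence of a bound site.

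Within this group the RNA of DDIT3 was higher after CTI-2, while the other 9 genes had lower mean values. DDIT3 rose 1.39-fold and TRIB3 fell 1.38-fold, both at an adjusted p under 0.05 in edgeR's quasi-likelihood test over the 9848 genes with enough reads, and these calls mark the genes' place in that fit only. ATF4 itself averaged 428 ± 7.18 CPM over the controls and 352 ± 1.91 CPM over the treated libraries (SD, n = 3 each). All 10 members passed the filter on low counts. The fit called 1 member higher and 1 lower, where 3.39% of all tested genes were called higher and 4.64% lower, and nothing is read from these counts because the members were named with this contrast known. CPM did not overlap between the groups for 8 members, 1 higher and 7 lower, against 13.2% of all tested genes higher and 15.6% lower without overlap. The median log2 fold change of the 10 genes was -0.37, against -0.01 over all tested genes, of which 51.3% had a negative value. Bulk RNA does not tell less RNA per cell from fewer cells that carry it.

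**Figure D1:**
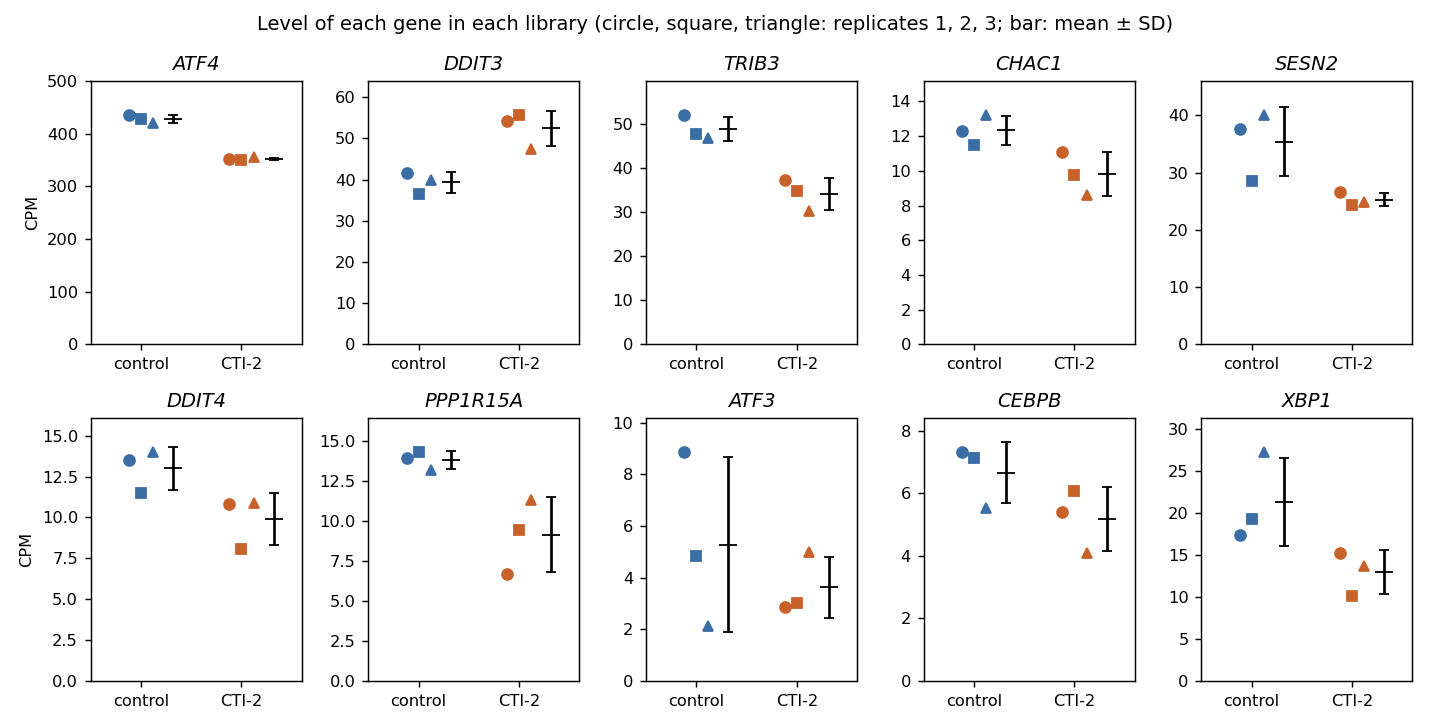
Level of each of the 10 genes (CPM, vertical axes from 0, one scale per gene) in the 3 control and 3 CTI-2 libraries, with the mean and SD beside the points. The groups do not overlap except for ATF3 and CEBPB, and DDIT3 is the gene whose CTI-2 points lie above the controls.

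ATF4 (ENSG00000128272, chromosome 22, 39519695 to 39522685, plus strand; the coordinates of genes here and below are the GENCODE 29 spans on GRCh38) had 435, 428 and 421 CPM in controls 1 to 3. After CTI-2 it had 352, 351 and 355 CPM in libraries 1 to 3. The control values all lay above the CTI-2 values, and the libraries of each group were closer together than counting error alone gives on average (coefficient of variation 1.68% against 2.88% from counting in controls, 0.541% against 3.24% after CTI-2). The mean after CTI-2 was 0.824 times the control mean in CPM, and the log2 fold change in edgeR, which rescales libraries by TMM, was -0.23 (SE 0.11). That value did not meet the threshold over all genes. It did when library totals were used in place of TMM (-0.28), in limma on log2(CPM + 1) (-0.28) and after removal of the trend with transcript length (-0.29), and in none of the fits that left out a library (-0.27 to -0.18).

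DDIT3 (ENSG00000175197, chromosome 12, 57516588 to 57521737, minus strand) encodes CHOP, a dimerisation partner of C/EBP proteins and a target of ATF4. It had 41.6, 36.6 and 40 CPM in the control libraries and 54.2, 55.6 and 47.5 CPM in those with CTI-2, on 94 to 171 reads per library. Each CTI-2 library lay above each control, and the log2 fold change was 0.47 (SE 0.14). Direction was kept in all 16 alternatives (0.34 to 0.53), but the call was not. Leaving out control 1 (0.50), control 3 (0.45) or the first (0.45) or second (0.44) CTI-2 library ended it. It was also lost in DESeq2 (0.47), with library totals (0.42), in limma on log2(CPM + 1) (0.40) and after removal of the trend with transcript length (0.34).

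The DDIT3 span shares 982 bases with MARS, the methionyl-tRNA synthetase gene, and 1028 bases with MBD6, both transcribed from the other strand. The sources used here do not state a strand setting for the counting. The control mean of MARS was 274 ± 38.8 CPM and its CTI-2 mean 193 ± 15.3 CPM (SD over 3 libraries each), a fall that was called. MBD6 stood at 10.1 ± 1.67 and 11.1 ± 3.01 CPM and was not called (log2 fold change 0.19, SE 0.25). How many reads of DDIT3 come from either gene was not tested. None of the other 9 members overlaps a counted gene with an annotated span.

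Set against ATF4 within the same library, DDIT3 took a larger share after CTI-2, a measure that does not depend on library scaling. There were 9.56, 8.57 and 9.5 DDIT3 reads per 100 ATF4 reads in the control libraries, and 15.4, 15.9 and 13.4 in the treated ones. For TRIB3 the same measure was 11.9, 11.2 and 11.1 in controls and 10.6, 9.89 and 8.56 after CTI-2. The groups did not overlap in either measure, and they went opposite ways. The ratio of DDIT3 to TRIB3 reads was below 1 in each control (0.766 to 0.855) and above 1 in each CTI-2 library (1.45 to 1.6). In CPM, DDIT3 was higher and ATF4 and TRIB3 were lower without overlap. The separation of the groups in the ratios of DDIT3 to either gene follows from those values and is no further result. As a share of all reads of the 10 genes, DDIT3 made up 6.02 to 6.50% in controls, with 95% exact binomial intervals that reached from 5.10 to 7.80%, and 9.31 to 10.9% after CTI-2, with intervals from 7.68 to 12.5%. ATF4 held 67.6 to 70.2% of those reads in controls and 67.4 to 69.4% after CTI-2, so its share overlapped between the groups. PCR copies are not marked in these reads, so the intervals cover counting error only.

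**Figure D2:**
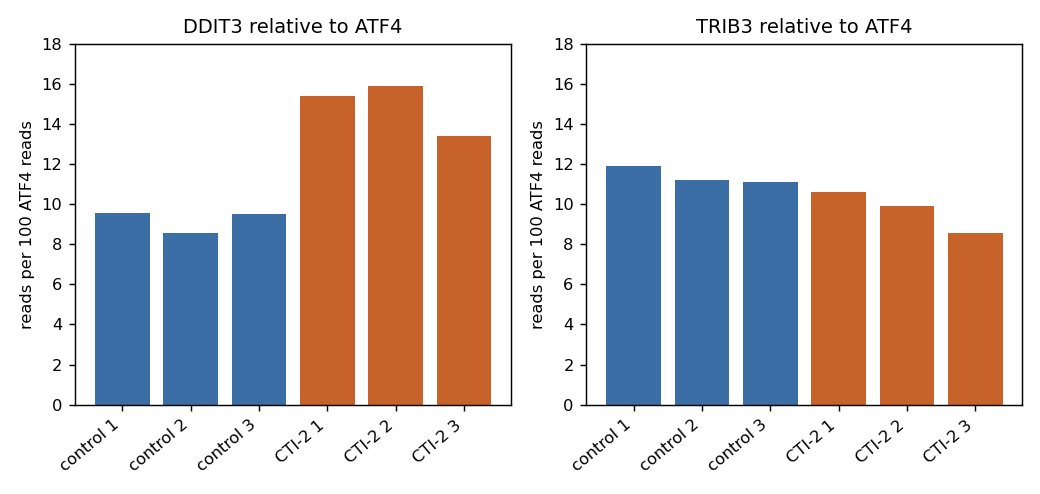
DDIT3 (left) and TRIB3 (right) reads per 100 ATF4 reads in each library (vertical axes from 0), controls in blue and CTI-2 in orange. DDIT3 stands at 8.57 to 9.56 in controls and 13.4 to 15.9 after CTI-2, while TRIB3 stands at 11.1 to 11.9 and 8.56 to 10.6.

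The other bZIP factors of the group were measured on fewer reads. XBP1 (ENSG00000100219, chromosome 22, 28794555 to 28800597, minus strand), the factor of the IRE1 branch of the unfolded protein response, had 17.3, 19.3 and 27.2 CPM in the control libraries and 15.2, 10.1 and 13.6 CPM in those with CTI-2. No CTI-2 value reached the lowest control, and control 3 was the highest library. Its log2 fold change of -0.65 (SE 0.21) was the lowest of the 10 and did not meet the threshold. Leaving out control 1 (-0.77) or the first CTI-2 library (-0.80) brought it past the threshold, as did fits with DESeq2's size factors in edgeR (-0.65), with no low-count filter (-0.65), with at least 20 counts in 3 libraries (-0.67), with the replicate block (-0.65) and after removal of the trend with GC content (-0.69). Spliced and unspliced XBP1 RNA cannot be told apart in these counts.

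ATF3 (ENSG00000162772), a stress-induced repressor and partner of ATF4 family factors, had 8.86, 4.84 and 2.13 CPM in the control libraries and 2.85, 3.03 and 4.98 CPM in those with CTI-2. The groups overlapped, and control 1, with 23 reads, stood above all other libraries. Its log2 fold change was -0.55 (SE 0.41), and it was -0.08 without control 1. CEBPB (ENSG00000172216), which encodes a C/EBP protein that CHOP can bind, had 7.32, 7.13 and 5.53 CPM in the control libraries and 5.39, 6.07 and 4.08 CPM in those with CTI-2. Its groups overlapped too, and its log2 fold change was -0.31 (SE 0.31) on 9 to 28 reads per library. It was -0.19 without control 2 or without CTI-2 library 3, and -0.44 without control 3.

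TRIB3 and PPP1R15A encode the feedback arm of the response. TRIB3 (ENSG00000101255, chromosome 20, 362835 to 397559, plus strand), a pseudokinase gene induced by ATF4 and CHOP, had 52.0, 47.8 and 46.8 CPM in the control libraries and 37.4, 34.7 and 30.3 CPM in those with CTI-2. All controls lay above all CTI-2 libraries, and the log2 fold change was -0.46 (SE 0.14). Its direction was kept in all 16 alternatives (-0.53 to -0.36). Among the fits that left out a library only that without control 3 kept the call (-0.52). Without control 1, control 2 or CTI-2 libraries 1 to 3 the values were -0.43, -0.42, -0.53, -0.46 and -0.39, in that order, and did not meet the threshold. The call was lost as well in DESeq2 (-0.46) and after removal of the trend with GC content (-0.36).

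PPP1R15A (ENSG00000087074, chromosome 19, 48872392 to 48876057, plus strand) encodes GADD34, which brings a phosphatase to eIF2 and so ends the response. It had 13.9, 14.3 and 13.2 CPM in the control libraries and 6.66, 9.44 and 11.3 CPM in those with CTI-2. The controls were tightly grouped and the CTI-2 libraries spread over a wider range below them. The mean after CTI-2 was 0.664 times the control mean in CPM and the log2 fold change was -0.58 (SE 0.24), which did not meet the threshold in any of the 16 alternatives (-0.74 to -0.39). PPP1R15B, which encodes the constitutive counterpart of GADD34, had a log2 fold change of -0.15, was not called, and stood at 0.08 without control 1.

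CHAC1, SESN2 and DDIT4 are effectors that act on glutathione and on the growth kinase complex mTORC1. SESN2 (ENSG00000130766, chromosome 1, 28259527 to 28282491, plus strand), a leucine sensor gene that restrains mTORC1, had 37.7, 28.5 and 40 CPM in the control libraries and 26.6, 24.3 and 24.9 CPM in those with CTI-2. Control 2 lay close above the CTI-2 libraries and the other controls far above. The log2 fold change was -0.41 (SE 0.16) and met the threshold only without control 2 (-0.52).

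DDIT4 (ENSG00000168209), the gene of the mTORC1 inhibitor REDD1, had 13.5, 11.5 and 14.0 CPM in the control libraries and 10.8, 8.09 and 10.9 CPM in those with CTI-2. The groups were separate but close, with a log2 fold change of -0.33 (SE 0.23), which was -0.19 without CTI-2 library 2. CHAC1 (ENSG00000128965), which encodes a glutathione-degrading enzyme, had 12.3, 11.5 and 13.2 CPM in the control libraries and 11.1, 9.77 and 8.60 CPM in those with CTI-2. CTI-2 library 1 came close to control 2, and the log2 fold change was -0.26 (SE 0.23). Neither gene met the threshold in any alternative.

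**Figure D3:**
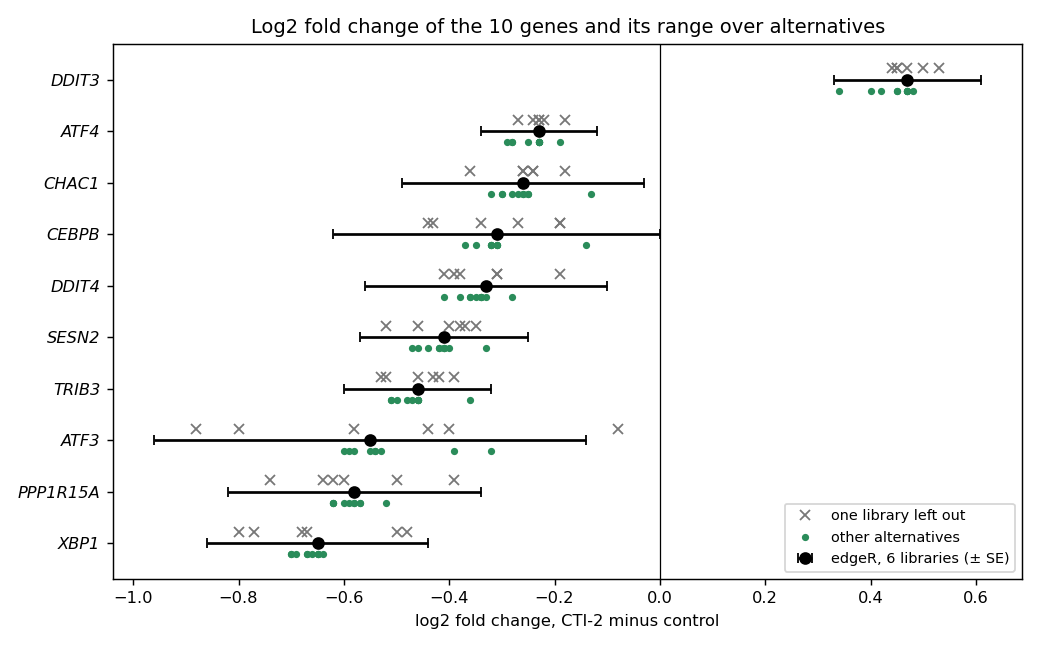
Log2 fold change (CTI-2 minus control, horizontal axis) of each gene in edgeR with all 6 libraries (black, ± SE), with 1 library left out (grey crosses) and under the other alternatives (green points). DDIT3 stays above 0 and the other 9 genes below 0 throughout, while ATF3 ranges from -0.88 to -0.08.

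Spread within a group exceeded counting error for 3 of the 10 genes in controls and for 3 after CTI-2. In controls these were ATF3, with a coefficient of variation of 64.2% against 25.9% from counting, XBP1 (24.6% against 13.1%) and SESN2 (17.2% against 10.2%). After CTI-2 they were PPP1R15A (25.7% against 20.4%), XBP1 (20.1% against 16.9%) and TRIB3 (10.5% against 10.3%). For the other 7 genes the controls differed from each other no more than reads drawn from 1 level would on average.

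Transcript length and GC content, which differed between the genes called higher and those called lower, were also read for the members. The longest annotated transcript was shorter than the median of tested genes (3673 bases) for all 10, at 1067 bases for DDIT3 and 1748 to 3453 bases for the others. Its GC content was above the median of tested genes (47.8%) for 8 of the 10. Over all genes, those called lower had a median GC content of 54.0% and a length of 3592 bases, and those called higher 45.9% and 2212 bases. With each library's trend with GC removed, TRIB3 went from -0.46 to -0.36 and CEBPB from -0.31 to -0.14. With the trend with length removed, DDIT3 went from 0.47 to 0.34 and ATF4 from -0.23 to -0.29.

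Profiles over the 6 libraries were compared by the Euclidean distance between TMM-scaled log2 CPM values centred on each gene's mean. Among the members, ATF4 and CHAC1 were the closest pair (0.30 on the log2 scale), followed by CHAC1 and TRIB3 (0.314) and by DDIT4 and SESN2 (0.32). The genes nearest to ATF4 were HIST1H2BK (0.0595), FDFT1 (0.0631) and EML6 (0.0723). MINOS1-NBL1 (0.11), CCDC58 (0.13) and SDC4 (0.141) were nearest to DDIT3. PHYHIP, YBX3 and NF2 were nearest to TRIB3 (0.131 to 0.148), and GLCE, TRIM16 and VAMP1 to DDIT4 (0.114 to 0.135). Such nearness was common: 28.6% of 9847 other tested genes lay within 0.5 of ATF4, 19.6% within 0.5 of DDIT3 and 9.45% within 0.5 of TRIB3.

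The rest of the pathway was described with 8 lists of other genes, also written with earlier results of these data known. Together they held 164 tested genes besides the members, of which 5 rose and 19 fell (edgeR, Benjamini-Hochberg adjusted p under 0.05), with a median log2 fold change of -0.13. Over all tested genes 3.39% were called higher and 4.64% lower, and the 5 that rose are near that share. The falls lay mostly in the list of amino acid genes bound by ATF4 and in that of endoplasmic reticulum chaperones. Leaving out control 2 gave 14 genes higher and 21 lower, and leaving out CTI-2 library 2 gave 3 higher and 10 lower. Calls over all tested genes moved in the same fits. They were 334 higher and 457 lower with all libraries, and 957 and 653 without control 2. Without CTI-2 library 2 they were 150 and 300. Of the 24 called genes, 10 kept their call whichever library was left out, and DESeq2 called 18 of the 24.

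Upstream of ATF4, 1 of 22 tested genes of the eIF2 kinases and eIF2 machinery rose (median 0.06). That is near the 3.39% of all tested genes called higher. The count was 4 without control 2, a fit that called 957 of all tested genes higher, against 334 with all libraries. It was 2 after removal of the trend with GC content and 0 without CTI-2 library 3. None of the 22 was called lower in edgeR with all libraries and no replicate block, where 6 had an unadjusted p under 0.05. EIF2B1, a subunit of the exchange factor that eIF2 phosphorylation inhibits, had a control mean of 160 ± 7.89 CPM and rose to 213 ± 12.9 CPM (log2 fold change 0.47 with SE 0.11, and edgeR adjusted p = 0.00542), a call lost without CTI-2 library 3 (0.43). PPP1CC, a catalytic subunit gene of the phosphatase that GADD34 brings to eIF2, had 190, 81.2 and 71.9 CPM in the control libraries and 40.6, 35.1 and 29 CPM in those with CTI-2. The groups did not overlap, control 1 stood far above the other controls, and the log2 fold change of -1.63 (SE 0.48) was not called. It was called lower in DESeq2 (-1.65), with the replicate block (-1.58) and without control 1 (-1.10). EIF2AK3, the gene of the endoplasmic reticulum kinase PERK, had 0 to 3 reads per library and was not tested. EIF2AK1, EIF2AK2 and EIF2AK4, the genes of the other 3 kinases, had log2 fold changes of 0.11, -0.59 and -0.13 and were not called. Of 12 tested genes among the unfolded protein response sensors and their processing enzymes none was called by edgeR or DESeq2 (median -0.12), and 1 had an unadjusted p under 0.05. The share of all tested genes with such a p was 23.9%. ATF6 stood at 137 ± 16.6 and 149 ± 14.5 CPM and the XBP1 RNA ligase gene RTCB at 124 ± 10.8 and 140 ± 12 CPM. MBTPS1, a processing enzyme gene of this list, was lower without overlap. Its log2 fold change was -0.6 (SE 0.2, edgeR adjusted p = 0.0501). In this list 1 gene was called lower without control 2, with DESeq2's size factors in edgeR and with at least 20 counts in 3 libraries. The same held in limma on log2(CPM + 1), with the replicate block and after removal of the trend with GC content. ERN1, which encodes the XBP1-splicing enzyme IRE1, had 0 to 4 reads per library.

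The members' bZIP partners and relatives gave no call among 21 tested genes in edgeR or DESeq2 with all libraries (median -0.08), with 4 at an unadjusted p under 0.05. Without control 3, 1 gene of this list was called lower. ATF1 stood at 129 ± 5.11 and 127 ± 9.73 CPM (log2 fold change 0.03, and -0.02 with library totals). CEBPG, a C/EBP gene that is itself an ATF4 target, had 15.0, 18.3 and 14.9 CPM in the control libraries and 8.24, 11.5 and 11.3 CPM in those with CTI-2, without overlap and without a call. Among 26 tested genes around mTORC1, on which SESN2 and DDIT4 act, only LAMTOR4 was called. With 1 gene higher, this list is near the 3.39% of all tested genes called higher. LAMTOR4 rose from 136 ± 14.3 to 180 ± 2.57 CPM (log2 fold change 0.44, edgeR adjusted p = 0.0132). It missed the threshold when control 1 (0.41), control 3 (0.35) or the first (0.43) or second (0.45) CTI-2 library was left out. The call was also lost after removal of the trend with transcript length (0.29).

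Downstream, 8 of 18 tested amino acid synthesis and transport genes fell (median -0.34), where 4.64% of all tested genes did, and none was called higher in edgeR or DESeq2. The count was 5 without CTI-2 library 2 or without CTI-2 library 3. PHGDH, the first enzyme gene of serine synthesis, had 375, 352 and 363 CPM in the control libraries and 234, 249 and 235 CPM in those with CTI-2. Every control lay above every CTI-2 library, and the log2 fold change was -0.55 (SE 0.11, edgeR adjusted p = 0.00107). SLC7A11, the gene of the cystine carrier, had 16.2, 18.3 and 22.1 CPM in controls and 8.88, 8.43 and 4.98 CPM in the treated libraries (log2 fold change -1.25, SE 0.24). CBS, which opens the route from homocysteine to cysteine, fell by 0.95 and the glycine transporter gene SLC6A9 by 0.62 on the log2 scale. The call of SLC6A9 was lost without CTI-2 library 3 (-0.50), while PHGDH, SLC7A11, CBS and CTH kept theirs whichever library was left out. The other 3 genes that fell, ASNS, SLC7A5 and SLC1A5, were called in 4, 2 and 2 of the 6 fits that left out a library. DESeq2 called SLC1A5 but not ASNS or SLC7A5. After removal of the trend with GC content, SLC7A5 (-0.26) and SLC1A5 (-0.30) were not called, while ASNS was (-0.58). SLC7A5 also lost its call with no low-count filter (-0.36).

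The 20 cytosolic aminoacyl-tRNA synthetase genes include ATF4 targets, but the list was not limited to them. Of the 20, 3 fell and 1 rose (median -0.07), against 4.64% and 3.39% of all tested genes. The 1 that rose is near the share over all genes. MARS, EPRS and QARS fell by 0.45, 0.40 and 0.36 on the log2 scale, and FARSB rose by 0.37. Leaving out a library cost each of these calls: MARS without CTI-2 library 2 (-0.37), EPRS without any one of the CTI-2 libraries (-0.41 to -0.39), and QARS and FARSB in all such fits but that without control 2 (-0.44 to -0.30 and 0.29 to 0.42).

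Among 21 other tested genes listed as targets of ATF4 and CHOP, 1 fell and 2 rose (median -0.11), against 4.64% and 3.39% of all tested genes. The 1 that fell is near the share over all genes. Whether ATF4 or CHOP acts on the listed genes in these cells was not tested. NUPR1, a stress-induced chromatin protein gene, had 141, 147 and 130 CPM in controls and 76.7, 70.8 and 68.4 CPM in the treated libraries (log2 fold change -0.90, SE 0.12). All controls lay above all CTI-2 libraries. TXNIP, the gene of an inhibitor of thioredoxin, rose by 1.03 and the growth arrest gene GADD45A by 0.93. These 3 calls held whichever library was left out. TNFRSF10B and ERO1A, usually listed as CHOP targets, had log2 fold changes of -0.05 and 0.01, were not called and changed sign under alternatives.

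Endoplasmic reticulum chaperone and degradation genes, which XBP1 and ATF6 control, included 7 that fell among 27 tested (median -0.32), where 4.64% of all tested genes did. None was called higher in edgeR or DESeq2 with all libraries, and 3 were without control 2. That fit called 957 of all tested genes higher, against 334 with all libraries. The count of 7 was 4 without control 3, without CTI-2 library 1 or without CTI-2 library 2. PDIA3, a disulfide isomerase gene, had 648, 449 and 381 CPM in controls and 152, 171 and 160 CPM in the treated libraries (log2 fold change -1.56, SE 0.16, edgeR adjusted p = 1.33e-05). Controls differed more from each other than CTI-2 libraries did, and the groups did not overlap. HSPA5, the main chaperone gene of this compartment, fell by 0.67, the chaperone gene CRELD2 by 0.91 and the disulfide isomerase gene PDIA4 by 0.41 on the log2 scale. The call of PDIA4 was lost without control 3 (-0.33) or any one of the CTI-2 libraries (-0.43 to -0.38), and PDIA3, HSPA5 and CRELD2 kept theirs whichever library was left out. The other 3 genes that fell, P4HB, CALR and MANF, were called in 3, 1 and 3 of those 6 fits and were not called in DESeq2.

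**Figure D4:**
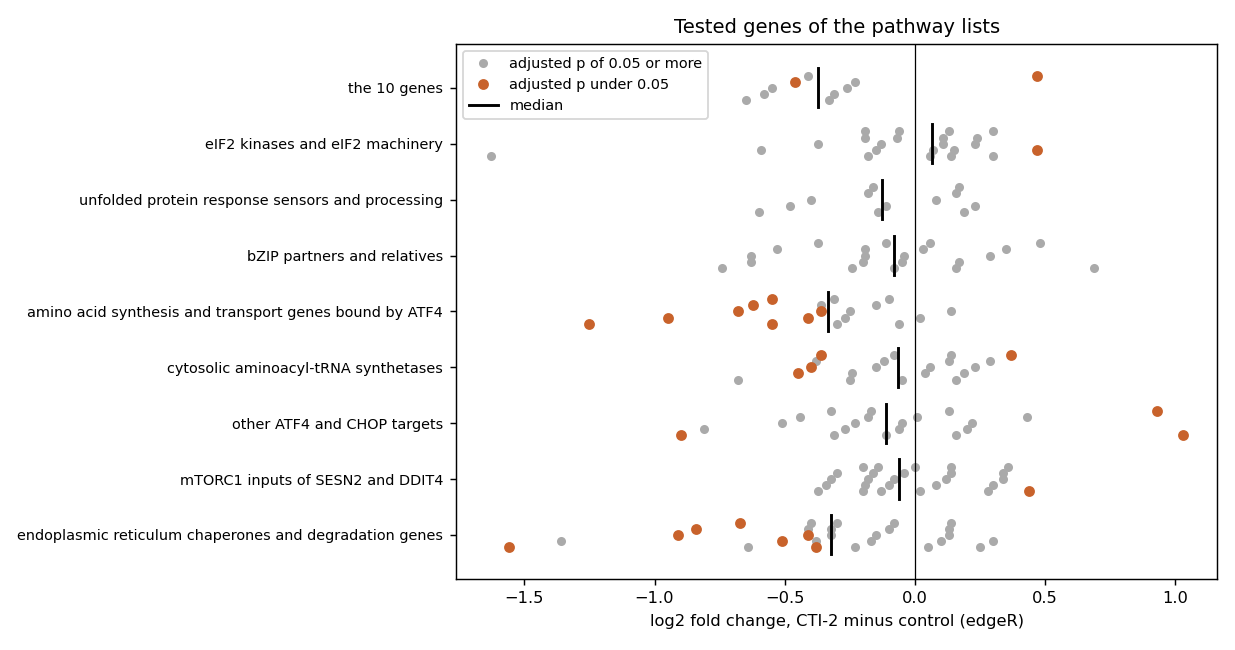
Log2 fold change (CTI-2 minus control, horizontal axis) of each tested gene of the 10 members and of the 8 pathway lists, with called genes in orange and the list median as a black line. Called genes of the amino acid and chaperone lists lie below 0, and DDIT3, EIF2B1, FARSB, TXNIP, GADD45A and LAMTOR4 are the called genes above 0.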

How the data were processed

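Total RNA of 3 control and 3 CTI-2 libraries was read by Oxford Nanopore cDNA-PCR sequencing, per the labels' protocols. The deposited tables hold raw read counts for each gene and, separately, the authors' CPM for the same libraries, whose columns equal count over library total. Alignment used minimap2, per the submitters' processing notes. The sources used here state no aligner version, genome build, annotation, counting tool, strand setting or filter. The deposited gene lengths equal GENCODE 29 spans for all 10 members, so their coordinates were taken from that annotation.

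Counts were tested with edgeR 4.0.16 (R 4.3.3, quasi-likelihood F-test, TMM, filterByExpr) on the 6 libraries, with Benjamini-Hochberg adjustment over 9848 tested genes and a threshold of 0.05. CPM were recomputed from the deposited counts and library totals. The SE of a log2 fold change is its size divided by the square root of the F statistic. Distances between profiles used log2 CPM with a prior count of 2. Alternatives were DESeq2 1.42.0, limma 3.58.1 (voom, and trend on log2(CPM + 1)), other scalings and filters, a replicate block, each library left out, and, chosen after seeing the data, removal of trends with transcript length or GC content. The fitting step was tested on simulated data.

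The members and the 8 pathway lists were chosen with earlier results of these data known. In each list up to 4 called genes with the lowest adjusted p were named, or 2 genes of the highest mean CPM where none was called. EIF2AK1 to EIF2AK4, ERN1, MBTPS1, PPP1CC, PPP1R15B, the other called genes of the amino acid and chaperone lists, CEBPG, TNFRSF10B and ERO1A were named outside that rule after their values were seen.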

Additional observations from a re-analysis of the deposited data

How the results depend on the processing

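No member changed sign in any alternative, but the calls among the members were few and moved. DDIT3 as the 1 member called higher became 0 with library totals, DESeq2, limma on log2(CPM + 1), the length trend removed or a threshold of 0.01, and 0 to 1 with a library left out. The 1 member called lower became 2 with library totals, size factors from DESeq2, a test without the low-count filter, at least 20 counts in 3 libraries, limma on log2(CPM + 1) or the length trend removed, and 0 with DESeq2 or a threshold of 0.01, and 0 to 1 with a library left out. Of the pathway genes, 5 higher and 19 lower became 3 and 10 at a threshold of 0.01, and 3 to 14 and 10 to 21 with a library left out. Calls moved over all tested genes as well. There, 334 higher and 457 lower became 107 and 199 at that threshold. With a library left out they ranged from 113 to 957 and from 287 to 653. ATF1 went from 0.03 to -0.02 with library totals, limma on log2(CPM + 1), the length trend removed or the GC trend removed. ERO1A went from 0.01 to -0.03 with library totals, to -0.01 with at least 20 counts in 3 libraries or limma on log2(CPM + 1), to -0.02 with the GC trend removed, and to between -0.17 and 0.16 with a library left out. With a library left out, TNFRSF10B ranged from -0.22 to 0.14, EIF2AK4 from -0.32 to 0.01, PPP1R15B from -0.28 to 0.08 and MBD6 from -0.02 to 0.41. Same-numbered libraries did not deviate together (correlations -0.049, 0.00689 and -0.124), and differently numbered ones had -0.0969 to 0.138. These values show no pairing by number, but counting error can hide a weak one, so they do not settle it. With the replicate block 2 members were called lower, 1 higher, and 22 pathway genes lower and 5 higher. The cause of these changes was not tested. ATF3 and CEBPB had 5 to 28 reads per library.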
